A study of Mus musculus with 8 samples.

Results

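The genes described here build or use the primary cilium and were chosen by name. The list holds 45 mouse genes of intraflagellar transport and its motors, the BBSome, the transition zone, ciliary Hedgehog (Hh) regulators, and the transcription factors Rfx2, Rfx3, Rfx4 and Foxj1. Each non-control probe set whose platform annotation names 1 of them and no other gene was taken, which gave 73 of 45037 probe sets and 42 of 18193 genes. Arl6, Arl13b and Rpgrip1l were not analysed here. Of the 42 genes 24 had 1 probe set and 18 had 2 to 4.

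The primary cilium is a single antenna of microtubules that projects from most vertebrate cells, the progenitors of the neural tube among them. Intraflagellar transport carries cargo out along it with kinesin motors and back with dynein, and the transition zone at its base controls what enters. In mammals the Hh signal passes through the cilium, where Smoothened gathers and Gli proteins are processed. Rfx factors bind a sequence called the X-box in front of many ciliary genes, and Foxj1 directs the programme of motile cilia.

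The samples were mouse embryoid bodies, aggregates of differentiating embryonic stem cells, grown in DFNB medium and kept in suspension for 2 days before 500 nM retinoic acid was added, an agent used to direct them to a neural fate. Retinoic acid alone was given to 4 samples (replicates 1 to 4), and another 4 (replicates 5 to 8) also received 1 μM of the Hh agonist HH-Ag. By their labels both groups were YFP3.1 cells in which Gli1FLAG is expressed constitutively, so the group without agonist is not free of added Gli1; the promoter used is not stated. For replicate 7 the labels give neither the line nor the time, which is 3 days for the other 7. The series calls its samples biological replicates but gives no account of separate cultures, so p-values reflect only the spread seen among these samples, which may be technical.

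Each sample had its own array, with a median intensity of 21.6 to 22.6. Sox2 and Nes, counted here as neural progenitor markers, were well measured in both groups, which does not by itself identify the cells. Here and below the group with retinoic acid alone comes first where values are set against each other. Sox2 was at 340.3 ± 44.9 against 285 ± 26.9 (mean intensity ± SD, n = 4 per group) and Nes at 262 ± 26.7 against 268 ± 5.09, while Sox1 was too dim to be tested. Several lists of marker genes held calls, but the lists were chosen with earlier results of these data known. Of 9 floor plate markers 6 rose and none fell, with summed intensities of 378 to 423 with retinoic acid alone and 1376 to 1556 with the agonist. Those that did not pass were Shh (35.1 ± 8.24 against 38.4 ± 8.26), Foxa1 (45.4 ± 6.81 against 45.1 ± 9.58) and Ferd3l (23.8 ± 6.17 against 26.0 ± 5.34). Of 12 neuronal markers 11 rose and none fell, with sums of 791 to 888 and 2376 to 2568. Of 11 tested neural progenitor markers Vim and Fabp7 rose and Pax6 fell, Vim with 1588 ± 87.3 against 1834 ± 59.9, Fabp7 with 24.6 ± 4.27 against 51.1 ± 5.67 and Pax6 with 41.3 ± 5.71 against 11.6 ± 3.58. The sums over all 12 were 2764 to 3006 and 3011 to 3260, but without Vim they were 1283 to 1377 and 1217 to 1343 and overlapped. No marker of these 3 lists was at 0 on every array. Of 10 pluripotency genes 2 fell (Dppa4 and Klf2) and none rose, 8 of the 10 had lower means on the log2 scale with the agonist, and the median log2 difference was -0.29. Of 14 cell cycle genes 2 fell (Ccna2 and Pcna) and none rose, 13 of the 14 were lower on that scale, and the median was -0.13. The sums of both lists overlapped between groups, at 5098 to 5906 and 5174 to 5477 for pluripotency and 9214 to 10129 and 8630 to 9313 for the cell cycle. Dppa5a alone, at 3962 ± 167 against 3944 ± 45.7, made up most of each pluripotency sum, and sums without it were not taken. None of 8 tested mesoderm and 6 tested endoderm markers passed in limma, where 0 and 1 reached an unadjusted p under 0.05. Over all 13675 tested genes 1.31% were called higher and 0.87% lower, and 7083 were lower on the log2 scale. In whole bodies fewer cells of a type and less RNA per cell cannot be told apart.

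The comparison asks which genes of the organelle that reads Hh differ when the pathway is stimulated. Rfx4 was the only one of the 42 genes to pass the test, and it was higher with the agonist. Of the 73 probe sets 54 were bright enough to be tested (a mean log2 value above the 40th percentile of all probe sets), of which 1 rose, 0 fell and 53 did not pass. A probe set passed with a Benjamini-Hochberg adjusted p under 0.05 in limma. Of all 27022 tested probe sets 1.87% passed, 1.14% higher and 0.733% lower. By the brightest probe set of each gene 35 members were tested and 1 rose, beside 2.18% of 13675 genes (1.31% higher and 0.87% lower). The members' share is near that background. Their median difference, agonist minus retinoic acid alone on the log2(intensity + 16) scale used throughout, was 0.028 over 35 genes, beside -0.0059 over all tested genes.

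**Figure D1:**
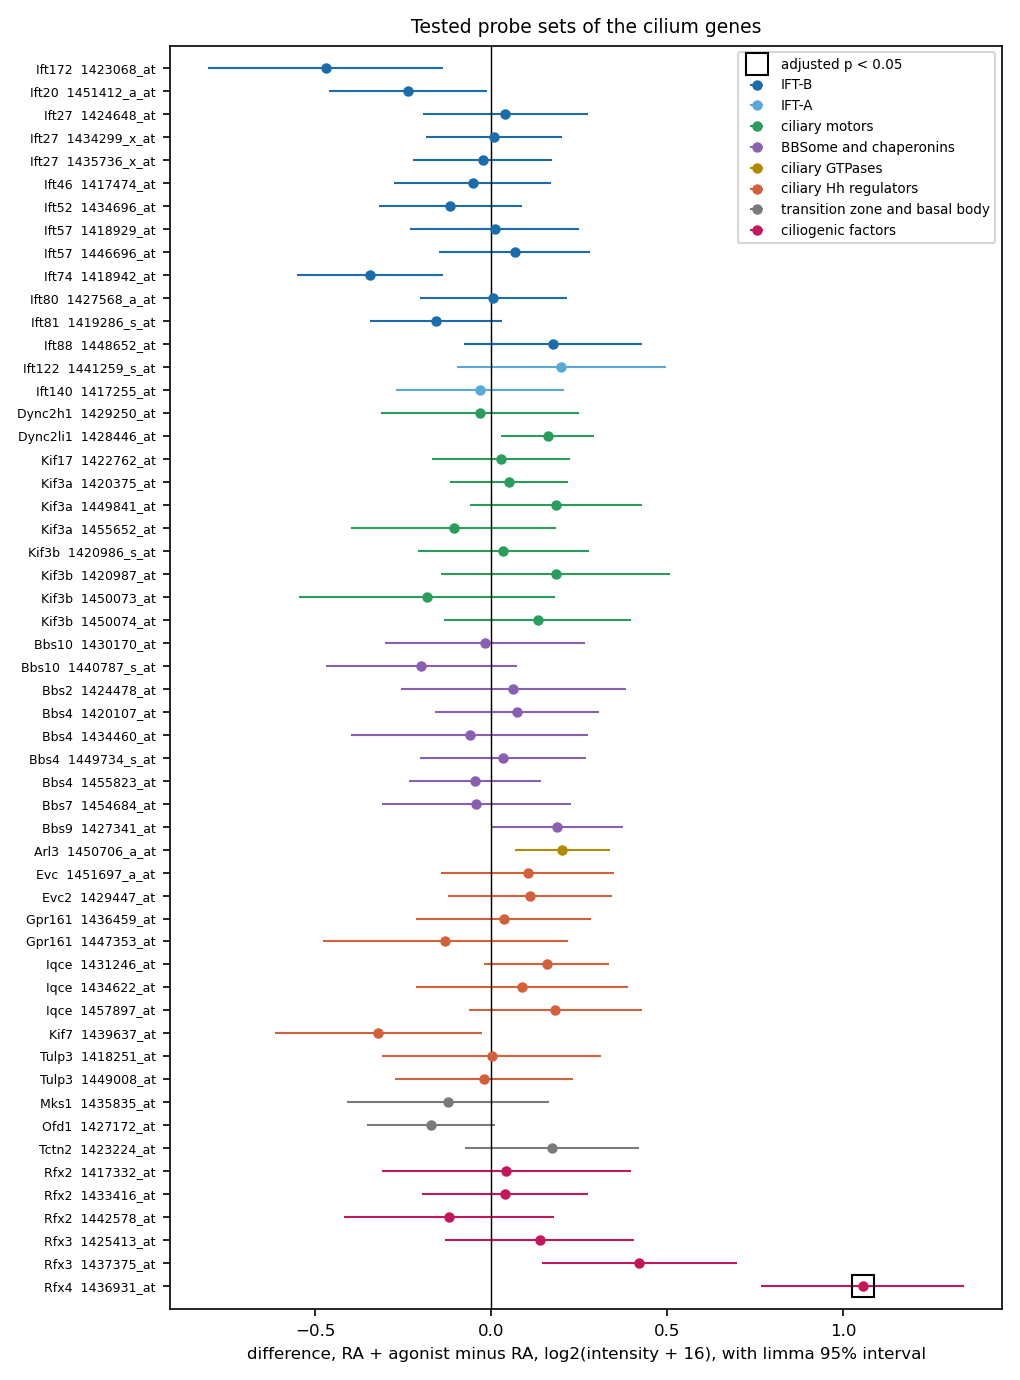
Difference between the groups for each of the 54 tested probe sets of the cilium genes (points, retinoic acid plus agonist minus retinoic acid, on the log2(intensity + 16) scale; bars, 95% interval from limma), coloured by role. The single boxed point is Rfx4 at 1.05, and all other points lie between -0.47 and 0.42.

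Rfx4 encodes an Rfx transcription factor of the developing neural tube that mice need for dorsoventral patterning and for normal cilia there. Its brighter probe set read 14.1, 18.7, 29.0 and 26.7 in replicates 1 to 4, with retinoic acid alone. It read 49.9, 67.8, 73.0 and 59.97 in replicates 5 to 8, with the agonist. The groups did not overlap, and the lowest agonist array was 1.72 times the highest array without it. The mean was 22.1 ± 6.93 against 62.7 ± 10.1, which gives a log2 difference of 1.05 (SE 0.14, 95% interval 0.77 to 1.34, adjusted p = 0.00015). By the size of the rise it stood at place 33 of the 179 genes that rose. On the same arrays 6 floor plate, 11 neuronal and 2 neural progenitor markers were called higher and 1 neural progenitor, 2 pluripotency and 2 cell cycle genes lower, with the sums given above, and their part in the Rfx4 difference was not tested.

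The Rfx4 difference was present on both hybridisation days. On the first day 1 array per group was run on the same fluidics station, and Rfx4 read 14.1 without and 49.9 with the agonist. On the second day 3 arrays per group gave means of 24.8 and 66.9 (adjusted p = 0.00032), but each group had a station of its own, so station and group cannot be told apart on that day. The other Rfx4 probe set was too dim to be tested. It read 5.82, 10.7, 0.925 and 8.10 with retinoic acid alone and 11.8, 17.0, 8.49 and 8.38 with the agonist, and the groups overlapped.

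The sequence in front of Rfx4 is shown because Rfx4 is the member that passed. RefSeq's promoter table (GRCm38.p6) holds a pair of Rfx4 starts on the plus strand of chromosome 10, and the 250 bases before each are printed 5′ to 3′. They are all in lower case, since they hold none of the motifs described further on.
Rfx4, first start, chr10:84755798-84756047: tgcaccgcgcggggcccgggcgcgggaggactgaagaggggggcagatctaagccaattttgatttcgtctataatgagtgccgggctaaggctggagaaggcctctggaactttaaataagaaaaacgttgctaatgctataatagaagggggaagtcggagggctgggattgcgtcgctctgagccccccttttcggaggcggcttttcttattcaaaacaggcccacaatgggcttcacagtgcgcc
Rfx4, second start, chr10:84837898-84838147: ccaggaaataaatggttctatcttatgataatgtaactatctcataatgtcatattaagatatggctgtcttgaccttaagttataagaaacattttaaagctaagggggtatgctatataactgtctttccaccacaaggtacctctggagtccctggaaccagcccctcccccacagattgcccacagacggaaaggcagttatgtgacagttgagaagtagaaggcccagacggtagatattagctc
The first window is 54.8% G and C with 15 CpG pairs and the second 42% with 2, beside medians of 52.4% and 6 over all promoters of the table. Which start each probe set reports on was not examined.

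The other ciliogenic factors did not pass. Rfx3, needed for nodal and ependymal cilia in mice, had a probe set that read 20.1, 22.8, 12.5 and 20.4 with retinoic acid alone and 25.6, 28.8, 32.4 and 35.7 with the agonist. These groups did not overlap, and the difference of 0.42 (SE 0.13, adjusted p = 0.144) was the largest positive one after Rfx4. The brightest Rfx3 probe set read 19.3, 24.6, 21.0 and 32.1 against 32.3, 26.5, 24.7 and 28.8, and there the groups overlapped (0.14, adjusted p = 0.730). Rfx2, known for its role in the cilia of sperm in mice, read 45.0, 52.4, 55.6 and 52.4 against 43.5, 47.9, 56.9 and 65.8 by its brightest probe set (0.038, adjusted p = 0.937). A further Rfx2 probe set had a difference of the opposite sign, with 21.6, 33.7, 30.9 and 29.6 against 17.7, 31.9, 21.1 and 31.7 (-0.12, adjusted p = 0.799). Foxj1 was far below the intensity of about 15.1 at which testing began, with 1.48, 6.27, 0.460 and 6.803 with retinoic acid alone and 2.40, 3.65, 0.727 and 8.83 with the agonist.

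**Figure D2:**
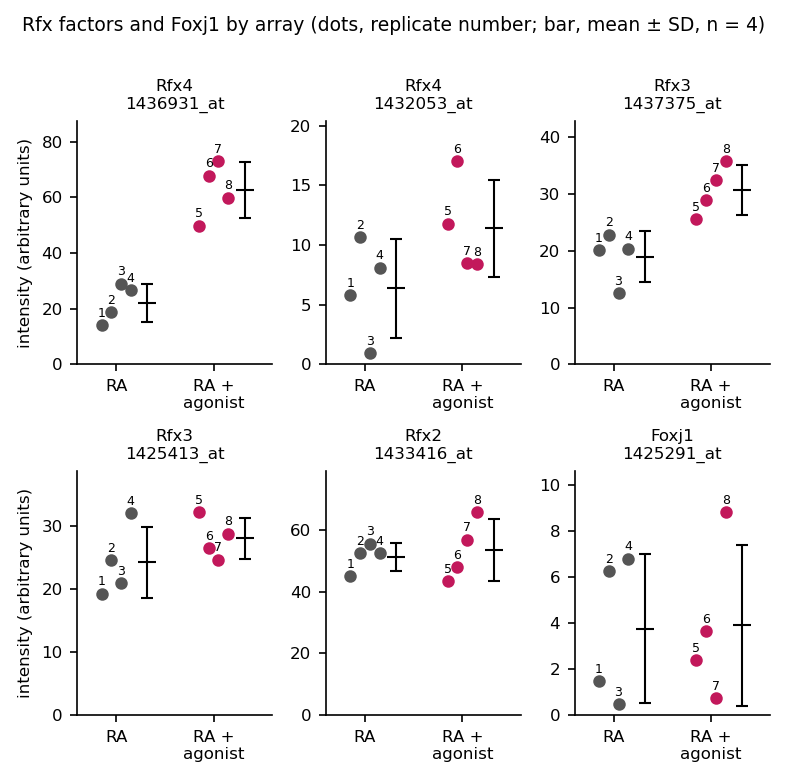
Intensity of Rfx4, Rfx3, Rfx2 and Foxj1 probe sets on each array, on linear axes that start at 0 (dots, arrays with their replicate numbers; bars, mean ± SD, n = 4). For the brighter Rfx4 and the dimmer Rfx3 probe set every agonist array lies above every array without agonist, and in the other 4 panels the groups overlap.

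None of the 6 ciliary Hh regulators passed. Kif7, a kinesin that organises the ciliary tip and regulates Gli proteins, read 27.1, 19.8, 25.5 and 18.6 with retinoic acid alone and 13.3, 14.4, 20.7 and 11.8 with the agonist. Agonist replicate 7 lay within the range of the other group, and the difference was -0.32 (SE 0.14, 95% interval -0.62 to -0.026, adjusted p = 0.355). Evc and Evc2 form a complex at the base of the cilium that passes on the Smoothened signal. Evc read 33.3, 37.0, 50.2 and 52.2 against 44.6, 46.4, 47.0 and 49.9 (0.10, adjusted p = 0.793). Evc2 read 67.4, 77.0, 85.8 and 53.4 against 78.0, 70.9, 81.3 and 77.6 (0.11, adjusted p = 0.755). Both overlapped between groups, and both spread more without the agonist than with it.

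Iqce, which tethers the Evc complex, read 195, 179, 161 and 148 against 191, 203, 183 and 188 (0.16, adjusted p = 0.492). Its 3 probe sets had differences of 0.16, 0.086 and 0.18. Gpr161, a ciliary receptor that restrains the pathway, read 36.7, 40.8, 42.1 and 37.6 against 40.9, 30.02, 42.7 and 50.8 (0.035, 95% interval -0.21 to 0.28). Its other probe set had the opposite sign, with 18.4 ± 6.81 against 15.3 ± 4.76. Tulp3, which brings Gpr161 into the cilium, read 35.0, 47.6, 38.4 and 53.2 against 51.3, 41.7, 40.7 and 36.2 (-0.021, 95% interval -0.27 to 0.23), and its next probe set had 19.0 ± 1.95 against 19.5 ± 6.54. By their brightest probe sets the 95% intervals of all Hh regulators other than Kif7 lay within 0.5 of 0.

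The IFT-B complex carries cargo outward, and none of its 10 genes passed. Ift74, whose product binds tubulin together with that of Ift81, read 113, 103, 124 and 119 with retinoic acid alone and 80.9, 75.5, 87.0 and 106 with the agonist. Agonist replicate 8 alone lay in the range of the other group. The difference was -0.35 (SE 0.10, adjusted p = 0.0979). Without replicate 8, the array singled out by its value, it was -0.43 (adjusted p = 0.0376). Ift74 passed in no other setting that was run. Ift81 read 86.9, 89.0, 92.9 and 100.02 against 78.8, 74.8, 90.8 and 80.2 (-0.16, adjusted p = 0.520), but the mean over its probe sets gave 0.11 (adjusted p = 0.725).

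Ift172, a large peripheral subunit, read 29.99, 33.2, 20.7 and 25.4 against 13.4, 7.74, 23.3 and 17.9. Agonist replicate 7 lay within the range of the other group, and the difference of -0.47 (SE 0.16, adjusted p = 0.189) was the lowest among the members. Ift20, a subunit that also serves at the Golgi, read 58.8, 62.5, 55.1 and 57.2 against 37.5, 51.9, 45.0 and 55.5 (-0.24, adjusted p = 0.377), and agonist replicate 8 overlapped the other group. Ift88, the subunit altered in the Oak Ridge polycystic kidney mouse, read 21.4, 22.02, 21.0 and 30.4 against 30.8, 27.4, 30.6 and 25.8 (0.18, adjusted p = 0.622). Replicate 4 lay among the agonist arrays, and the other 3 without agonist lay below them. Ift27, Ift46, Ift52, Ift57 and Ift80 had differences between -0.12 and 0.040 by their brightest probe sets, and a further Ift57 probe set had 0.066. In the IFT-A complex, which serves the return journey, Ift140 had 90.1 ± 17.2 against 87.0 ± 8.90 and Ift122 18.8 ± 6.35 against 23.5 ± 2.76, and neither passed.

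The 5 motor genes had 10 tested probe sets, and none passed. Dync2li1, the light intermediate chain of the dynein that drives the return journey, read 323, 338, 329.6 and 353 with retinoic acid alone and 359, 373, 408 and 370.3 with the agonist. These groups did not overlap, with a difference of 0.16 (SE 0.063, adjusted p = 0.284). Dync2h1, its heavy chain, read 29.7, 35.6, 39.0 and 39.2 against 25.3, 41.7, 45.2 and 28.9 (-0.032, adjusted p = 0.958). Kif3a, a subunit of the kinesin that drives outward transport, read 169, 181, 164 and 205 against 179, 186, 199 and 181 (0.051, adjusted p = 0.861). The groups overlapped for both. Other probe sets of Kif3a and of its partner Kif3b had differences of both signs, from -0.18 to 0.18. Kif17, a motor of ciliary membrane proteins, had 61.7 ± 4.92 against 63.2 ± 3.48.

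Arl3, a GTPase that releases lipid-modified cargo inside the cilium, read 255, 247, 251 and 275 with retinoic acid alone and 299, 297, 301 and 295 with the agonist. The groups did not overlap, and the difference was 0.20 (SE 0.064, adjusted p = 0.146), with an adjusted p of 0.0495 after quantile normalization. The BBSome moves receptors through the cilium, and of its 8 measured genes, chaperonin-like members included, 5 were tested and none passed. Bbs9 read 94.5, 81.5, 93.0 and 97.7 against 111, 103, 115 and 97.4 (0.19, adjusted p = 0.402), with agonist replicate 8 inside the range of the other group. Bbs4 had 75.3 ± 3.45 against 72.5 ± 5.23, and its 4 probe sets had differences of both signs, from -0.062 to 0.073. Bbs2 had 68.4 ± 17.4 against 71.9 ± 16.8, Bbs7 58.7 ± 3.77 against 57.6 ± 14.3 and Bbs10 25.0 ± 1.86 against 19.9 ± 4.52. Bbs1, Bbs5 and Bbs12 were too dim to be tested, with group means of 3.6 to 10.6.

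At the transition zone and basal body 3 of 6 genes were tested and none passed. Ofd1, a gene of the basal body, read 88.4, 83.6, 85.3 and 94.7 with retinoic acid alone and 74.8, 71.2, 81.1 and 78.5 with the agonist. Every agonist array lay below every array of the other group, and the difference was -0.17 (SE 0.086, adjusted p = 0.446). Tctn2 had 35.7 ± 6.87 against 42.1 ± 5.28 and Mks1 28.6 ± 2.72 against 25.4 ± 8.06, both genes of the transition zone gate. Cep290, Tctn1 and Tmem67 were too dim, with group means of 7.19 to 16.7.

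**Figure D3:**
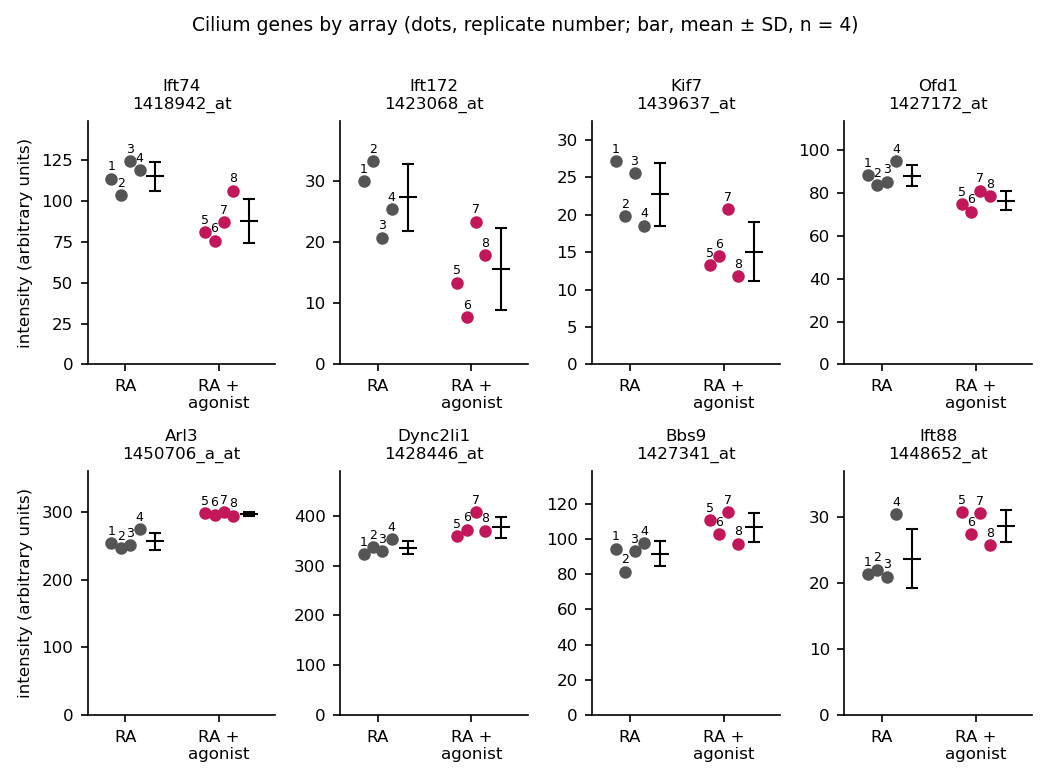
Intensity of 8 cilium genes on each array, on linear axes that start at 0 (dots, arrays with their replicate numbers; bars, mean ± SD, n = 4). For Arl3 and Dync2li1 all agonist arrays lie above the others and for Ofd1 all lie below, while the groups overlap for Ift74, Ift172, Kif7, Bbs9 and Ift88.

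Over all roles the groups did not overlap for 5 of the 54 tested probe sets. Rfx4, Rfx3, Arl3 and Dync2li1 (4 probe sets) were higher with the agonist and Ofd1 (1) was lower, beside 3.56% higher and 3.51% lower over all tested probe sets. An unadjusted p under 0.05 was reached by 9 of the 54, beside 12.2% of all. These were Rfx4, Rfx3, Arl3, Dync2li1 and Bbs9 with higher values and Ift74, Ift172, Ift20 and Kif7 with lower ones. Of the 53 probe sets that did not pass 47 had a difference under 0.2 in size, and 47 had a 95% interval within 0.5 of 0, the widest reaching 0.81 (Ift172). The median SD within groups was 0.17 on the log2 scale for members and 0.15 for all tested probe sets. Of 11 members with at least 2 tested probe sets 7 had differences of both signs. The 19 untested probe sets had group means of 1.58 to 17.3, and none of them passed when no filter was set.

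Further genes of the primary cilium, kept as a separate list, gave no call either. Of 61 genes 55 had a probe set, 50 were tested and 0 passed in limma, beside 2.18% of all 13675 tested genes. An unadjusted p under 0.05 was reached by 3, all with higher values. Over all 13675 genes 1871 reached it, 803 with higher and 1068 with lower values. Wdr35, of the IFT-A complex, read 17.6, 26.2, 19.3 and 27.1 against 30.4, 31.4, 32.5 and 34.7 without overlap (0.33, adjusted p = 0.240). Wdr19, of the same complex, read 26.9, 24.5, 35.5 and 21.9 against 40.8, 34.5, 36.4 and 32.0 (adjusted p = 0.369), and the groups overlapped. Bbip1, a BBSome subunit gene, read 921, 924, 972 and 932 against 1063, 1025, 970.1 and 971 (adjusted p = 0.394). The median difference of the 50 genes was -0.036.

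Among motile cilium genes 31 of 33 had a probe set, 22 were tested, 1 rose and 0 fell, with a median difference of 0.079. Over all tested genes 1.31% were called higher and 0.87% lower. The motile cilium gene that rose was Tppp3, a tubulin polymerisation gene expressed in multiciliated cells and elsewhere. It read 94.3, 81.9, 113 and 98.1 with retinoic acid alone and 175, 194, 191 and 183 with the agonist. The groups did not overlap, and the difference was 0.85 (SE 0.089, adjusted p = 1.1e-05). Rsph9, a radial spoke gene, read 18.8, 19.97, 11.6 and 16.5 against 27.1, 28.8, 19.96 and 24.9 (adjusted p = 0.301). The axonemal dynein gene Dnaic2 read 139, 138, 144 and 147 against 166, 164, 170.2 and 143 (adjusted p = 0.428). The other 21 tested genes did not pass. The summed intensity of the 31 genes was 1145 to 1234 without and 1288 to 1405 with the agonist, but without Tppp3 the sums of the other 30 were 1050.4 to 1152 and 1105 to 1211 and overlapped.

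**Figure D4:**
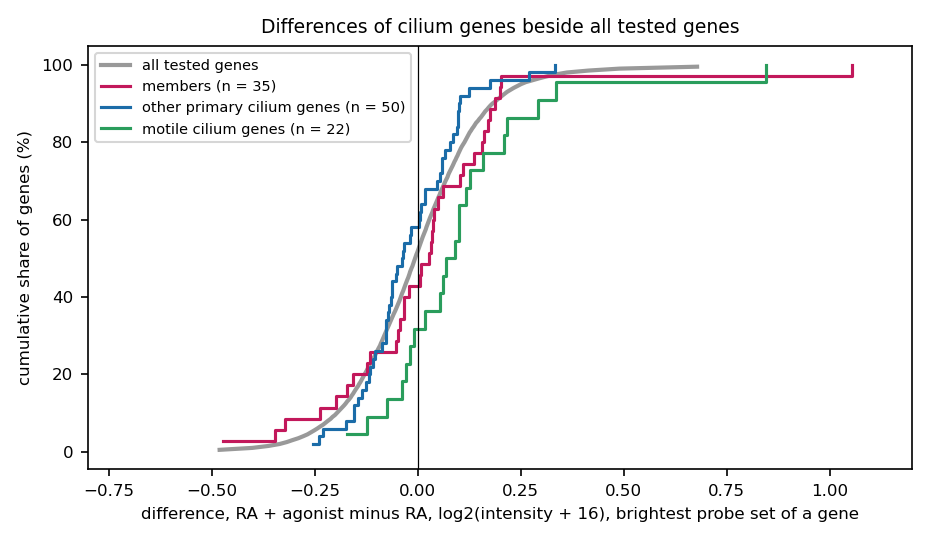
Cumulative share of genes (%) against the difference between groups on the log2(intensity + 16) scale, by the brightest probe set of each gene, for the tested members (n = 35), further primary cilium genes (n = 50), motile cilium genes (n = 22) and all tested genes. Most genes of each list lie near 0, with Rfx4 (1.05) and Tppp3 (0.85) as single steps far to the right.

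Since Rfx factors are known to act through the X-box, promoters were searched for it in RefSeq's windows from 250 bases before to 50 bases after each start (GRCm38.p6, both strands). The X-box was taken as GTNNCC, then 3 bases of any kind, then GNAAC. No other spacing was searched for, so sites with another spacing are not counted. It occurred in 7 of the 38 members with a window (18.4%), beside 2.49% of all 27025 genes in the table. The shorter core GTTGCC, which 5 of the 7 matches contain, occurred in 18 of the 38 (47.4%), beside 14.1% of all genes. The forkhead core GTAAACA and the Gli core GACCACCCA occurred in 0 of the 38, beside 4.05% and 0.289% of all genes. In the 250 bases before the start, members' promoters had a median of 18 CpG pairs, beside 6 over all promoters, and the part of base composition in these shares was not tested. The 7 matches are shown 5′ to 3′ along each gene's strand, with up to 8 bases on either side and the match in capitals. In Bbs1, Ift57 and Tctn2 the letters match on the opposite strand.
Bbs1, chr19:4906605-4906634, minus strand: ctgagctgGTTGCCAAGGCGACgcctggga
Bbs4, chr9:59353464-59353493, minus strand: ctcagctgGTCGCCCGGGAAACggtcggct
Bbs7, chr3:36613489-36613518, minus strand: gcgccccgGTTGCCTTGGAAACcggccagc
Ift57, chr16:49699199-49699228, plus strand: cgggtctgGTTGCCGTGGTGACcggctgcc
Mks1, chr11:87853183-87853212, plus strand: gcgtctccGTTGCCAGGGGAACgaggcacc
Tctn1, chr5:122264411-122264432, minus strand: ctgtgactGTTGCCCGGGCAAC
Tctn2, chr5:124598679-124598708, plus strand: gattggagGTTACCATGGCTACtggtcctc
The match lay before the start in Bbs7, Ift57, Mks1 and Tctn2 and after it in Bbs1, Bbs4 and Tctn1. A match describes letters and not a bound site.

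Of these 7 genes Bbs4, Bbs7, Ift57, Mks1 and Tctn2 were tested and none passed, with a median difference of -0.043. Of all 353 tested genes with an X-box match 0 were called higher and 2 lower (0.567%), with a median difference of -0.012. Of all 11004 tested genes with a window 221 were called (2.01%), 129 higher and 92 lower.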

How the data were processed

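RNA from 8 embryoid body samples was measured on Affymetrix Mouse430_2 arrays, per the file headers. The deposited table gives a linear intensity for each probe set on each array, and its summarisation and normalization are not stated in the labels or headers. Other deposited files are instrument records, from which hybridisation day, chip lot and fluidics station were read. Chip lot and hybridisation day coincided. Replicates 1 to 5 were run on 1 station and replicates 6 to 8 on another. For every gene, station and group therefore cannot be fully told apart. The deposited intensities were used without further normalization, 16 was added, and log2 taken, so fold changes of dim genes are understated. Of 45101 probe sets 64 controls were left out, and 34945 name 1 gene. Testing was limited to the 27022 probe sets with a mean log2 value over the 40th percentile (near an intensity of 15.1). No detection calls were used.

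Groups, taken from the sample titles, were compared in limma 3.58.1 (R 4.3.3, lmFit, eBayes with an intensity trend, two-sided, Benjamini-Hochberg over all tested probe sets), a model tested on simulated data. In the simulation 47.8% of changes of 0.5 on the log2 scale were recovered, 95.5% of changes of 1 and 100% of changes of 2. All p-values given are from limma. Levels of different probe sets were set against each other to choose a gene's brightest one and to limit testing, and were added in the list sums. Apart from that, genes were not ranked by level. Genes were represented by the probe set with the highest mean over all arrays. The rule for named genes asked for values by array of member probe sets that were called, of the 6 with the lowest p in each direction, of a fixed set (Foxj1, Rfx2 to Rfx4, Kif7, Tulp3, Gpr161, Evc, Evc2, Iqce, Ift88, Kif3a, Dync2h1, and Arl13b, not analysed here), and of a member's next probe set where signs were opposite, some of which are given as means or ranges. From the other cilium lists it took those called and the 3 with the lowest p. The members, lists and rules were chosen with earlier results of these data known. Python 3.11.15, pandas 2.3.3, numpy 2.4.6 and matplotlib 3.10.9 were used. Alternatives were quantile normalization, median centring, 1 or 64 added, no filter or the 60th percentile, no trend, array weights, hybridisation day as a block, the second day alone, averaging the probe sets of a gene, and leaving out each array.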

Additional observations from a re-analysis of the deposited data

Results flagged for a closer look

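Ift88 in replicate 4 of the retinoic acid group read 30.4, while the other 3 arrays of that group read 20.95 to 22.02. The gap to the nearest array was 0.875 of the group's range on the log2 scale, above Dixon's critical value for 4 samples. It was the only such value among 112 groups of 4 arrays from 56 probe sets, where chance alone marks about 1 in 20.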

How the results depend on the processing

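Rfx4 was called higher in all 19 other settings run, with a log2 difference of 0.56 (64 added) to 1.499 (1 added) and an adjusted p of 1.79e-05 to 0.0031 in limma. With quantile normalization 2 member probe sets and 2 members by their brightest probe set were higher, Arl3 being the added one (0.23, adjusted p = 0.0495). Leaving out each array in turn, 0 to 1 member probe sets and 0 to 1 members were lower, Ift74 being the one (without agonist replicate 8). The cause of these changes was not tested. Each setting gave 0 calls for the further primary cilium genes and 1 higher and 0 lower for the motile cilium genes. The Ift81 difference turned from -0.16 to 0.11 with the mean of its probe sets, 2 of which are too dim to be tested alone. Of 692 values for 38 named probe sets 45 had another sign than in the reported fit, all from 13 probe sets, and the others of these 45 concern differences smaller than their standard error. No paired analysis was possible because the groups share no replicate numbers. The median 95% interval reached 0.25 to either side of a member's log2 difference with 4 arrays a group. Dim signal left 19 of 73 probe sets untested.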
